A study of Homo sapiens with 8 samples.

Results

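Isolated methylated cytosines in coding exons were single positions in nuclear messenger RNA at which bisulfite sequencing left a sizeable share of reads unconverted and no other covered cytosine close by reached that share. A cytosine was taken when at least 20 reads covered it, at least 20% of those reads were unconverted, no other such cytosine lay within 50 nt on the same strand, and it fell in the coding sequence of a protein-coding gene on that strand. The rule gave 178 sites in 175 genes, out of 2802549 covered coding cytosines and 6649767 covered nuclear cytosines. The sites were thus selected on level, coverage and isolation, and those values are described here without a test.

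The cells were HEK293, a line derived from human embryonic kidney. Poly(A) RNA gave the 2 BS RNA-Seq samples, which were deposited as 1 table, so a methylation level has no replicate error and its interval covers counting error only. In the other 6 samples, cells received a myc-tagged NSun3 or NSun6 construct, 3 replicates each, and were harvested after 24 h for miCLIP. In miCLIP, a mutated methyltransferase stays bound to its target cytosine and reverse transcription stops beside it, and the read ends, called truncations, mark the site. The study's methods describe a catalytic mutant for NSun3, and the labels name the NSun6 construct only as myc-tagged. Overexpressed, tagged enzymes limit what the truncations say about endogenous enzymes, and the labels do not say whether replicates came from separate cultures, so p-values measure the spread between these libraries.

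5-Methylcytosine (m5C) in RNA is written by the NSUN family and by DNMT2. NSUN2 and NSUN6 are the enzymes best known for acting on messenger RNA: NSUN2 sites in messenger RNA tend to be followed by guanines, and NSUN6 favours a CUCCA motif. NSUN3 works in mitochondria on the methionine tRNA. Bisulfite converts unmethylated cytosine to uracil, so an unconverted read stands for m5C, for its oxidised form hm5C, which bisulfite does not tell apart, or for incomplete conversion, which strong RNA structure favours.

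The sites fell into sets by the bases next to them. Each sequence below is the sense strand from GRCh37 (hg19), 5′ to 3′, 30 bases long, with the site at base 15. Capitals mark the site and the motif that starts there. The first set shows sites at the first cytosine of CTCCA, the motif on which all NSun6 reads at the isolated sites fell. RPSA had NSun6 reads in 1 library only and PAK2 had none.
NECTIN2, chr19:45375169-45375198, plus strand: gtggccctctgcatCTCCAaagagggccgc
RPSA, chr3:39450183-39450212, plus strand: gtcagtgttatatcCTCCAggaatactggc
RPS6KB2, chr11:67200231-67200260, plus strand: tggccctgggccatCTCCActcccagggca
MAPK3, chr16:30128512-30128541, minus strand: ctacagtctctgccCTCCAagaccaaggtg
DMAC2, chr19:41944199-41944228, minus strand: agaaaaggacaataCTCCAgttcctgacca
NCOR1, chr17:15971336-15971365, minus strand: tatcccagcgaagtCTCCAgtgcctggggt
PAK2, chr3:196547396-196547425, plus strand: ggtagaaggagagcCTCCAtacctcaatga

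The next set shows sites followed by NGGG, where N is any base and GGG starts at the second base after the site. COL4A5 had the highest level and APRT the highest coverage among them. In APRT, DVL1, CHCHD10 and SF3B4, N was itself a guanine, so the run of guanines began right after the site.
COL4A5, chrX:107911630-107911659, plus strand: gtttccctggtgtgCAGGGtcccccaggcc
APRT, chr16:88876872-88876901, minus strand: tgctcatccgaaagCGGGGgaagctgccag
DVL1, chr1:1277754-1277783, minus strand: cggacaggcggcatCGGGGactcccggccc
CHCHD10, chr22:24110040-24110069, minus strand: ccgccaccatgcctCGGGGaagccgcagcg
TJAP1, chr6:43472785-43472814, plus strand: gggagtgccactctCTGGGtactgccaggg
SF3B4, chr1:149895502-149895531, minus strand: cctatggctaccagCGGGGgcctctccctc

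The last set had neither motif, and only the site is in capitals. In NYNRIN, KXD1 and P3H1, GGG stood right after the site without a further guanine, so NGGG did not follow. In NDUFB7 there was no such run.
NYNRIN, chr14:24886057-24886086, plus strand: tggcctccctgagtCgggacctccagttcc
KXD1, chr19:18679417-18679446, plus strand: tgacgaggagatgaCgggcgaatagccctg
P3H1, chr1:43232332-43232361, minus strand: cccggcccaggcctCgggcgccgccgccct
NDUFB7, chr19:14677636-14677665, minus strand: cggctgctcaagtgCaagcgtgacagcttc

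Of the 178 sites, 18 were the first cytosine of CTCCA, 52 were followed by NGGG, where N is any base, and 108 had neither motif. CTCCA sites made up 10.1% (exact binomial 95% interval 6.10% to 15.5%) of the isolated coding sites and 0.673% of the 2800772 covered coding cytosines below the level. For NGGG the shares were 29.2% (22.7% to 36.5%) and 2.44%. Both motifs were searched on the sense strand of the spliced transcript, and no site had both. Among the 4678 covered coding cytosines below the level within 50 nt of a site, 0.492% were at the start of CTCCA. Of them, 3.81% were followed by NGGG. Whether they shared reads with the site was not measured, and coverage could differ widely. The NCAPG2 site had 21 reads, while a neighbour unconverted in 0.0503% of reads must have had far more. At the other cytosines of the CTCCA motif there were 0 sites at base 3, beside 0.682% of the covered coding cytosines below the level, and 3 at base 4, or 1.69% (0.35% to 4.85%) beside 0.686%. Methylated coding cytosines that had another one within 50 nt held 4 CTCCA sites in 1599, or 0.250%, and NGGG followed 11.3% of them.

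Guanine was also common around the 108 sites with neither motif. It stood right after 46.3% of them and after 14.3% of the covered coding cytosines below the level. At the next position the shares were 55.6% and 31.8%. Among the 108 sites with neither motif, a class noticed after the values were seen held 19 sites with GGG directly after the cytosine. That made 10.7% (6.55% to 16.2%) of all sites, beside 1.00% of the covered coding cytosines below the level. Both shares leave out cytosines followed by NGGG. The 31 NGGG sites with guanine as N also had GGG directly after the cytosine and are not among the 19. A run of GGG right before the cytosine, also noticed afterwards, stood at 24 sites, or 13.5% beside 2.03%. It was as common, at 12.8%, among the methylated coding cytosines with another one nearby, and 19 of the 24 had fewer than 50 reads.

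**Figure D1:**
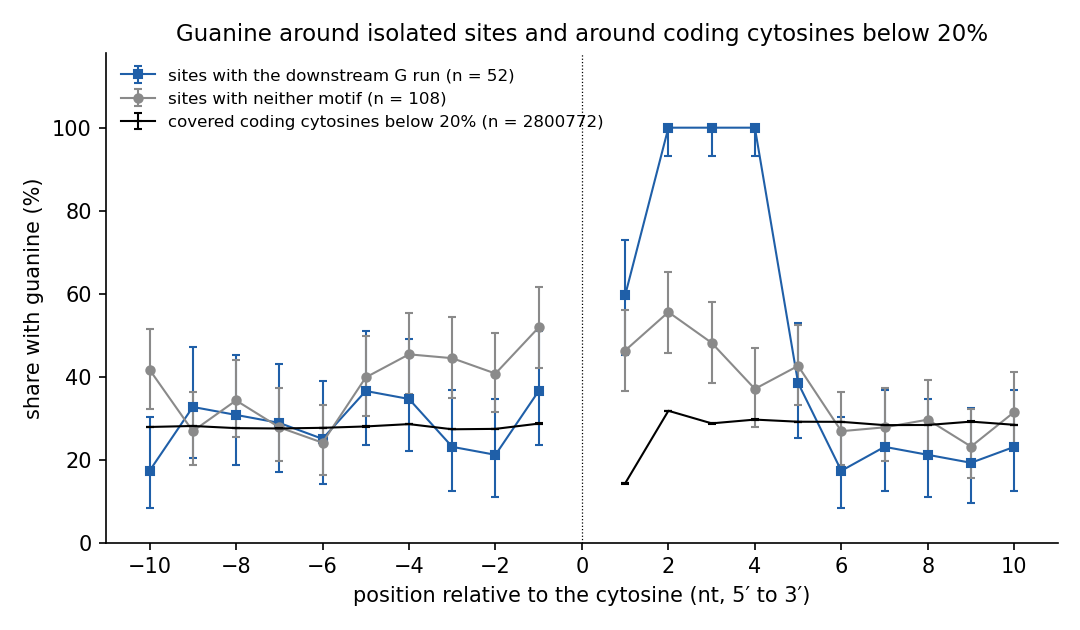
Share of sequences with guanine (%) at each position from 10 nt before to 10 nt after the cytosine, for the 52 sites followed by NGGG, the 108 sites with neither motif and the 2800772 covered coding cytosines below 20%, with exact 95% binomial intervals. In the group named for its G run, the 3 positions from 2 to 4 nt after the site are at 100% by construction, and for the sites with neither motif the intervals lay above the background line from 5 nt before to 3 nt after the cytosine, and also at 10 nt before and 5 nt after it.

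Levels ranged from 20% to 93.2% with a median of 26.8%, and 76 of the 178 sites were below 25%. The site in COL4A5, a basement-membrane collagen chain, had the highest lower bound of all, with 594 of 637 reads unconverted (93.2%, exact 95% interval 91.0% to 95.1%). It lay at the first base of a CAG glutamine codon, at base 3700 of 5073 of the coding sequence, and the 34 other cytosines covered within 50 nt were together unconverted in 0.119% of reads, with 0.671% at the highest of them. NYNRIN, an integrase-domain gene, had 131 of 165 reads (79.4%, 72.4% to 85.3%) at the first base of a CGG arginine codon. NECTIN2, which encodes a cell adhesion protein, had 72 of 88 (81.8%, 72.2% to 89.2%). In DVL1, a transducer of Wnt signalling, the level was 76.4% (64.9% to 85.6%, 72 reads).

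KREMEN2, a co-receptor for the Wnt antagonist DKK1, had a level of 88.0% on 25 reads. GPR137, with 83.9% on 31 reads, CHCHD10, which encodes a mitochondrial intermembrane-space protein, with 80% on 30, and HEXD, a hexosaminidase, with 78.4% on 37, also rested on shallow coverage. MRPL23 and TJAP1 reached 72.4% on 87 reads and 70.7% on 75. The lower bounds of these 6 sites lay between 59.0% and 68.8%, and the sites in MRPL23 and HEXD were among the 10 of the 178 sites that lay outside the coding sequence of their gene's principal transcript.

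RPSA, the gene of a small-subunit ribosomal protein and laminin receptor, had by far the most reads, with 6436 of 11051 unconverted (58.2%, 57.3% to 59.2%). The 17 other covered cytosines within 50 nt of it did not exceed 0.0672%. The 31 bases around the RPSA site have 16 exact matches in the nuclear genome, so reads could be shared with near-identical copies and its values are uncertain. APRT, a purine salvage enzyme, followed with 1775 of 4582 reads (38.7%, 37.3% to 40.2%). Its site was the first base of a CGG arginine codon, and no neighbour exceeded 0.786%.

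A further 4 sites were covered by over 1000 reads and had levels within a narrow band, between 22.2% and 30.8%. These were NDUFB7, an accessory subunit of respiratory complex I, with 624 of 2137 reads (29.2%), TMEM219, a death receptor for IGFBP3, with 399 of 1410 (28.3%), KXD1, a lysosome-positioning protein, with 387 of 1255 (30.8%), and the splicing factor SF3B4 with 272 of 1226 (22.2%, 19.9% to 24.6%). AKIRIN1 had 26.4% on 879 reads, the transcriptional corepressor NCOR1 23.1% on 761 and P3H1, a collagen prolyl hydroxylase, 49.7% on 650. For these sites the counting error was small, and the intervals of APRT and of P3H1 did not overlap those of the 4 sites.

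**Figure D2:**
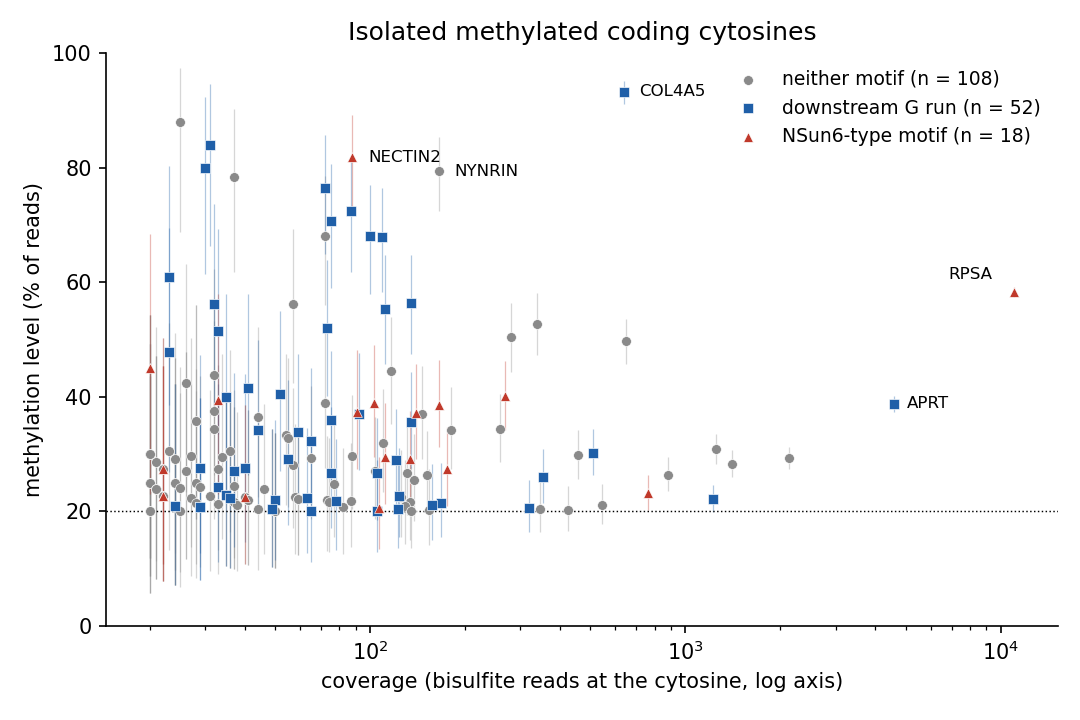
Methylation level (% of reads unconverted) against coverage (reads, log axis) for the 178 isolated coding sites, with exact 95% binomial intervals as vertical lines. Triangles are the 18 sites at the first cytosine of CTCCA, squares the 52 followed by NGGG and circles the 108 with neither, and the dotted line is the 20% that the rule set. Most points crowd between 20% and 40% at under 100 reads, and COL4A5, NYNRIN and NECTIN2 stand high above the line.

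The sets differed in coverage and in how clean their surroundings were, which are values of the same table that chose the sites. CTCCA sites had a median level of 33.3% and a median coverage of 105 reads, and the lower bound of the level was at or above 20% at 13 of 18. Sites followed by NGGG had 29.6%, 68.5 reads and 28 of 52. Sites with neither motif had 25%, 37.5 reads and 26 of 108. A cytosine of 10% or more lay within 50 nt of 0 CTCCA sites, 5 NGGG sites and 34 sites with neither motif, so these 39 sites were isolated only at the level the rule demanded. Of the 108 sites, the 19 followed directly by GGG had a median of 30% on 74 reads, the 22 preceded by GGG had 22.7% on 36.5 reads, and the other 67 had 24.3% on 37 reads.

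Just above the level, the sites with the most reads were LETM1 (20.3%, 424 reads), WIZ (20.5%, 347) and CCDC86 (20.6%, 320). Just below it were a pair of adjacent cytosines of the linker histone gene H1-10 (19.1% of 4202 reads and 19.5% of 4098) and a cytosine of IRS4 (19.5% of 2548). Between 20% and 21% lay 29 sites, of which 10 were at exactly 20%, and 11 sites had exactly 20 reads. In 3 genes there were 2 sites each. In CCDC86, a nucleolar protein gene, the levels were 20.6% and 20%, in NOXA1, an activator of NADPH oxidase, 25.4% and 51.5%, and in the endocytic collagen receptor MRC2 38.9% and 21.8%. The NOXA1 site at 51.5% had 33 reads and lay 3 nt from an exon junction, where a genome alignment may miss reads.

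By codon, the arginine codon CGG came first. It held 21 sites, all at its first base, which is its only cytosine. That made 11.8% of sites beside 1.80% of the covered coding cytosines below the level. At 16 of the 21 the cytosine was followed by NGGG or directly by GGG. GGC, a glycine codon, held 17 sites (9.55% beside 2.94%). Over all sites, codon positions 1, 2 and 3 held 51, 59 and 68. The share at position 3, 38.2% (31% to 45.8%), was close to that of the covered coding cytosines below the level, 38.0%. Among the CTCCA sites, 10 of 18 were at position 3, and so were 47.0% of CTCCA cytosines below the level.

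Within the first 100 nt of the coding sequence lay 20 sites, or 11.2% (7.0% to 16.8%), beside 5.36% of the covered coding cytosines below the level. The share was higher, 18.1% (16.3% to 20.1%), among the methylated coding cytosines with another one within 50 nt. Of the NGGG sites 8 of 52 and of the CTCCA sites 1 of 18 lay there. The last 100 nt held 15 sites, 8.43% beside 8.23%. The share of G and C in the 41 bases around the site had a median of 68.3% and the background a median of 58.5%. The part of position and base composition in the motif shares was not tested.

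The rule did not use miCLIP. The question was whether either enzyme had been caught at the isolated sites. The NSun6 libraries held 305392 to 467586 reads and the NSun3 libraries 47352 to 138921, of which 34794 to 86678 were nuclear. The coding exons of NSUN6, which report the transfected construct, had 915 to 1058 RPM (reads per 1000000 reads of the library) in the NSun6 libraries, and those of NSUN3 had 230.4 and 358 RPM in NSun3 replicates 1 and 2. The library labelled NSun3 replicate 3 had no NSUN3 read, so its label was not borne out by reads of its construct. At the isolated sites all 3 NSun3 libraries were at 0, so that leaving it out could not change the difference in mean RPM there.

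NSun6 reads were given to the nearest cytosine within 2 nt, and to the one before the truncation where cytosines on both sides were equally near. They fell on 15 of the 18 CTCCA sites, on 0 of the 52 NGGG sites and on 0 of the 108 others. No alternative varied the rule for such ties. The 15 sites made up 8.43% of the 178, and 0.623% of the covered coding cytosines below the level, CTCCA included, had an NSun6 read. At that share hardly any of the 52 and 108 sites would have a read, so their 0 is not read as avoidance. Among the CTCCA cytosines below the level 22.7% did, beside 83.3% (58.6% to 96.4%) of the CTCCA sites. High-confidence NSun6 sites, defined by more than 50 RPM in 2 or more of the 3 libraries, numbered 13 among the CTCCA sites, or 72.2% (46.5% to 90.3%), beside 1.76% of CTCCA cytosines below the level.

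At the 178 sites together, the NSun6 libraries held 4426.8, 3819.6 and 4656.3 RPM in replicates 1, 2 and 3, from 1434, 1786 and 1422 reads. The NSun3 libraries held 0 reads. Only 0.00746% of the covered coding cytosines below the level had an NSun3 read, so 0 was the usual value and not particular to these sites. The NSun6 mean was 4301 ± 432 RPM (SD, n = 3), at least 91.2-fold higher than the mean of 47.2 RPM that 3 reads per NSun3 library would give. The groups did not overlap, and the exact two-sided permutation test gave p = 0.1, the smallest that 3 libraries against 3 can give.

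**Figure D3:**
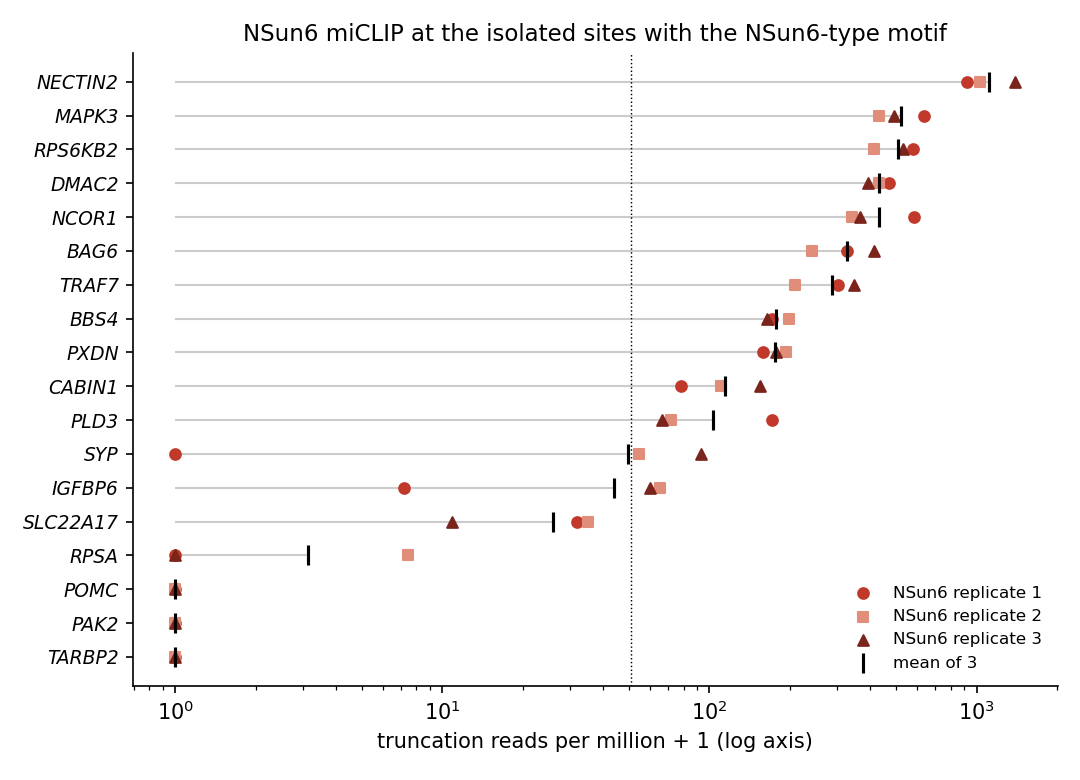
NSun6 truncation RPM plus 1 (log axis) at each of the 18 CTCCA sites, with a symbol for each of the 3 replicates, a bar for their mean and a dotted line at 50 RPM. From NECTIN2 down to PLD3 all replicates lie above 50 RPM, SYP has no read in replicate 1, RPSA has reads in replicate 2 only, and POMC, PAK2 and TARBP2 are at 0.

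An edgeR quasi-likelihood test compared the enzymes over all 1737 cytosines with enough reads. Of the 178 sites 11 passed its count filter, and they did so through their NSun6 reads alone, since every NSun3 count was 0. All 11 were called higher in NSun6 at a Benjamini-Hochberg adjusted p under 0.05, as were 70.7% of all tested cytosines. The filter fixed these calls in advance, and nothing is read from them. Every NSun3 value being 0, a fold change has only a lower bound.

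NECTIN2 had 923, 1029 and 1398 RPM in the 3 NSun6 libraries, at least 23.7-fold above what 3 reads per NSun3 library would give. It was the highest of the sites in each NSun6 library. With 1207 of the 4642 NSun6 reads at the sites, it weighed heavily in the values summed over them. MAPK3, which encodes the kinase ERK1, had 636, 429.9 and 491 RPM (at least 11-fold). RPS6KB2, an S6 kinase, had 577, 411 and 530.5 RPM (at least 10.7-fold). The levels were 22.5% on 40 reads in MAPK3 and 40.1% on 269 reads in RPS6KB2, and their exact 95% intervals, 10.8% to 38.5% and 34.2% to 46.3%, overlapped.

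In DMAC2, a complex I assembly factor, the mean was 430.3 ± 39.8 RPM (SD, n = 3), and in NCOR1 it was 429.8 ± 131. BAG6, a chaperone for tail-anchored proteins, had 327 ± 85.5 RPM and TRAF7, a ubiquitin ligase, 286 ± 71.3. BBS4, a component of the BBSome of cilia, PXDN, a peroxidase of the extracellular matrix, CABIN1, an inhibitor of calcineurin, and PLD3, an endolysosomal exonuclease, had means between 102 and 177 RPM. Each of these 8 sites had reads in all 3 NSun6 libraries.

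Below them, SYP had 0, 53.5 and 91.7 RPM, IGFBP6 had 6.17, 64.2 and 58.9 and SLC22A17 had 30.9, 34.2 and 9.82. These sites did not pass the count filter, and their replicates spread widely. RPSA had 3 reads in replicate 2 and none in the others, with a mean of 2.14 RPM, below the 8.5 RPM that 3 reads per NSun6 library would give. It was the most deeply covered of the sites in the bisulfite table, and the miCLIP reads were kept only where they mapped to a single place. Whether that lowered the NSun6 count at RPSA was not tested. POMC, PAK2 and TARBP2 had no NSun6 read. Their levels rested on 5, 6 and 5 of 22 reads, and the PAK2 window has 2 exact matches in the genome.

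Most of the CTCCA cytosines with strong NSun6 signal were not isolated methylated sites. Of 344 covered coding CTCCA cytosines that were high-confidence NSun6 sites, 13 were isolated methylated sites, or 3.78% (2.03% to 6.38%). Their median level was 0.525%, and 134 of them had no unconverted read. At the 3941 CTCCA cytosines with weaker NSun6 signal 2 were isolated sites, and at the 14579 without an NSun6 read 3 were. Of the 52 high-confidence NSun6 sites in coding exons outside CTCCA, 0 were.

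**Figure D4:**
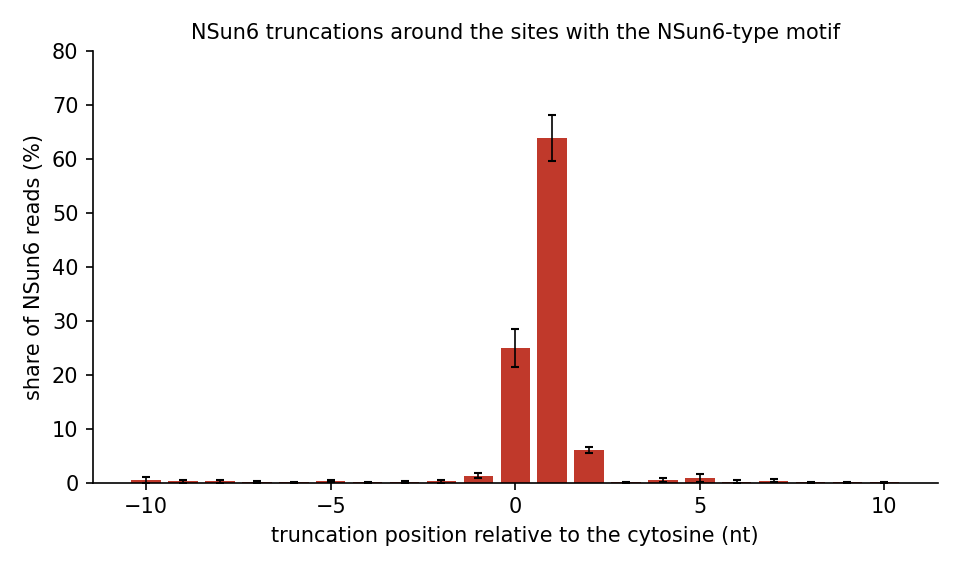
Share of NSun6 reads (%) by distance of the truncation from the cytosine (nt), over all truncations within 10 nt of the 18 CTCCA sites, as the mean of 3 NSun6 libraries with the SD. The bar at 1 nt after the cytosine holds 63.9% ± 4.3, the cytosine itself 24.9% ± 3.6 and 2 nt after it 6.0% ± 0.56.

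NSun6 truncations were sharply placed. Within 10 nt of the CTCCA sites lay 1605, 2029 and 1575 reads in the 3 libraries, and 63.9% ± 4.3 (SD, n = 3) of them stopped 1 nt after the cytosine and 24.9% ± 3.6 at the cytosine itself. The base 1 nt after the cytosine is the T of CTCCA, equally near to base 1 and base 3 of the motif. Reads that stopped there were given to base 1 by the rule for ties. Within 10 nt of the other 160 sites there were 0, 9 and 5 reads, and 0 in each NSun3 library.

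Predicted RNA structure around the CTCCA sites is described without a test. The probability that a base is unpaired was computed with ViennaRNA in windows of 80 nt, allowing pairs up to 40 nt apart, along each spliced transcript. For the 18 CTCCA sites the cytosine was unpaired with a median probability of 77.8% (quartiles 52.1% and 86.9%), and for the 534 CTCCA cytosines below the level in the same transcripts with 41.6% (19.7% and 74.2%). From 4 nt before to 5 nt after the cytosine, a stretch chosen after the profile was seen, the mean was 66.9% ± 20.7 (SD over 18 sites) beside 51.8% ± 15.3. On both sides the order turned round. From 10 to 6 nt before the site the mean was 32.6% ± 15.8 beside 52.2% ± 20.1, and from 7 to 11 nt after it 30.3% ± 22.9 beside 52% ± 21. The profile was thus raised at the motif and lowered in these flanking stretches, which hold its low points. Further out it lay above that of the CTCCA cytosines below the level at some positions and below it at others. NECTIN2, SYP and PXDN were above 95% unpaired at the site, and POMC, PAK2 and TARBP2, without NSun6 reads, were at 13.5%, 21.5% and 51.6%. SLC22A17 and RPSA were at 37.1% and 44.1%.

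**Figure D5:**
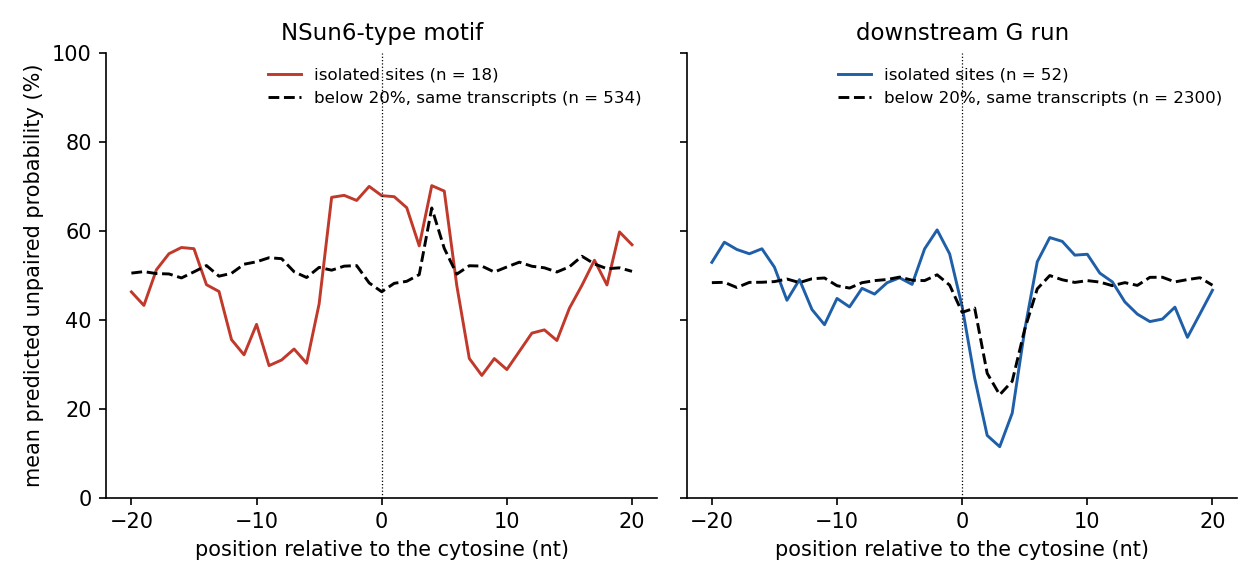
Mean predicted probability of being unpaired (%) by position from the cytosine (nt), on the left for the 18 CTCCA sites and on the right for the 52 sites followed by NGGG, each beside cytosines with the same motif below 20% in the same transcripts (dashed). The left solid line is raised around the cytosine and lowered close by on each side. The right one drops to its lowest point over the guanines after the site.

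At the cytosine, sites followed by NGGG were unpaired with a median of 39.3%, beside 36.4% for the 2300 such cytosines below the level in the same transcripts. Their 3 guanines were unpaired with a mean of 14.8% ± 13.5 (SD over 52 sites) beside 25.8% ± 18.6, and the 4 bases before the cytosine with 54.7% ± 22.8 beside 48.9% ± 21.8. The median share of G and C in the 41 bases around was 70.7% at the NGGG sites and 65.9% at the 2300 cytosines. The part of base composition in the predicted pairing was not tested. Sites with neither motif had a median of 31.6% at the cytosine, beside 43.0% for all covered coding cytosines below the level in these transcripts. The 22 of them preceded by GGG had the lowest, 22.6%. These are predictions for naked RNA, and transcripts outside these genes were not folded.

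The host genes were spread over many functions. Cytoplasmic ribosomal protein genes held 3 sites in 83 genes, namely RPSA, RPS29 (20%, 50 reads) and RPL27A (20.4%, 49 reads). RPSA was added to this list after the first counts were seen, since the name pattern had missed it, and without it the list held 2 sites. With it the rate was 0.349 per 1000 covered coding cytosines, beside 0.0635 over all 12556 genes. The RPS29 window has 4 exact matches in the genome and the RPL27A site lies outside the principal coding sequence. Chaperones held CCT5 (22%, 59 reads) and CCT7 (21.6%, 37 reads), both subunits of the chaperonin TRiC. Splicing factors held SF3B4, the nuclear-encoded oxidative phosphorylation genes NDUFB7, mitochondrial ribosomal proteins MRPL23 and the replication and cell cycle list MCM3 (36.4%, 44 reads). The sites in CCT5, CCT7 and MCM3 lie 6, 8 and 7 nt from an exon junction, where a genome alignment may miss reads. Within 20 nt of a junction lay 22 of the 178 sites, or 12.4% (7.91% to 18.1%). The share was 9.53% of the covered coding cytosines below the level and 4.32% of those within 50 nt of a site. TUBGCP6, a gamma-tubulin complex component that the tubulin pattern took in, had 178 of 338 reads (52.7%). These other lists held 1 or 2 sites each, at 0.053 to 0.155 per 1000 covered coding cytosines. Translation factors, aminoacyl-tRNA synthetases, proteasome subunits, glycolytic enzymes and histones held 0, and so did the 14 covered genes of m5C writers and readers, over 4610 covered cytosines. The lists without a site had 3614 to 15867 covered coding cytosines each, too few to tell 0 sites from the rate over all genes.

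As a check of the label, VIM, KRT8, KRT18 and CDH2, which HEK293 cells express, had median coverages of 7278, 282, 605 and 159.5 reads in coding exons, and PTPRC, CD3E, HBB, ALB, MYH7, UMOD, NPHS1 and AQP2 had no covered coding cytosine. COL1A1 did, with a median of 81 reads. Against other isolated methylated cytosines, the coding sites differed in the CTCCA share. In genomic sequence, CTCCA began at 2.51% (1.16% to 4.72%) of the 358 isolated sites in untranslated exons and at 0.894% (0.291% to 2.07%) of the 559 outside exons of protein-coding genes, intervals that lay below that of the coding sites. NGGG followed 24.3% and 20.4% of them, beside 28.7% of coding sites in genomic sequence, with overlapping intervals. The motif shares over all covered cytosines of the other classes were not computed, and 5′ and 3′ untranslated exons were not separated.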

How the data were processed

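BS RNA-Seq of poly(A) RNA (2 samples) and miCLIP of NSun3 and NSun6 (3 libraries each) were used. The authors trimmed the bisulfite reads, mapped them to bisulfite-converted hg19 (GRCh37) with Bismark and deposited counts of methylated and unmethylated reads, with the percent methylated per cytosine. Pooling of the 2 samples is not given in the sources used here for that table. The study's methods describe levels both with and without removal of likely PCR duplicates. Which of these the table holds is not given, so reads may not be independent molecules. Reads across exon junctions may be missing from a genome alignment. For miCLIP the authors collapsed reads with identical random barcodes, kept reads of at least 18 nt that Bowtie placed uniquely with at most 1 mismatch, and deposited counts per truncation position without a strand column. The first pass over the chromosomes was taken as the plus strand.

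The percent column was recomputed from the deposited counts. Positions were read as 0-based, and 454 nuclear positions without C or G in the reference were dropped. Coding sequence came from GENCODE 44 lifted to GRCh37, and 4 sites lay in the coding sequence of a second gene too. Truncations within 2 nt were given to the nearest cytosine and scaled to RPM, that is reads per 1000000 reads of each library. Ties went to the cytosine before the truncation. edgeR 4.0.16 (TMM scaling, filterByExpr, quasi-likelihood test, Benjamini-Hochberg adjustment over all tested cytosines) compared the enzymes, and the fit was tested on simulated data. DESeq2 1.42.0 was an alternative. Pairing probabilities came from ViennaRNA 2.7.2, and Python 3.11.15 with scipy 1.17.1 gave exact binomial intervals and the exact permutation test. Intervals and floors of 3 reads cover counting error only.

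Named sites were the 10 with the highest lower bound of the level, the 10 with the highest coverage, the 10 with the highest NSun6 RPM and the 3 with the highest NSun3 RPM, each with reads in at least 2 of 3 libraries (none had NSun3 reads), the 5 genes with the most sites, up to 3 sites per gene list, any site in a gene of m5C writers and readers, and the 3 sites on each side of the 20% level with the most reads. The other CTCCA sites were named after their values were seen. The sites and the gene lists were chosen with earlier results of these data known.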

Additional observations from a re-analysis of the deposited data

How the results depend on the processing

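With at least 50 reads required the number of sites was 96, their median level 29.1% and the share followed by NGGG 38.5%. With a level of at least 40% there were 42 sites, with a median level of 52.4%, 52.4% followed by NGGG, 23.8% at codon position 3, 4 with an NSun6 read and 3 at high-confidence NSun6 sites. Isolation was judged again at each setting, so these sets also hold sites that are not among the 178, and the cause of the moved shares was not tested. In the other 56 of 65 comparisons with an alternative the value stayed within its interval or within 1.5 times its count, or a difference kept its sign. Of these, the 8 for the RPM difference and the 12 for the edgeR calls say nothing about stability. NSun3 was at 0 at every site, which fixed the sign of the difference and the direction of the calls. The 56 include both alternatives chosen after seeing the data, which left out sites with a neighbour of 10% or more (CTCCA 12.9%, NGGG 33.8% of 139) and sites whose window has several or no genome matches (9.74% and 30.5% of 154).

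Leaving out 1 miCLIP library at a time gave 4123 to 4542 RPM for the difference between NSun6 and NSun3 at the sites, 14 to 15 sites with an NSun6 read, 11 to 13 high-confidence sites and 9 to 12 sites called higher in NSun6. Without a filter on low counts edgeR called 3418 of all 92349 cytosines (3.7%) higher in NSun6, beside 1228 of 1737 with the filter. Over all cytosines that count was 2555, 2295 and 2359 without NSun3 replicate 1, 2 or 3, where more cytosines passed the filter, and 854, 852 and 821 without NSun6 replicate 1, 2 or 3. With the replicate number as a block, edgeR called 11 of 11 sites tested, a count that the filter fixed. Same-numbered libraries carried the same experimental barcode, but the labels name no shared culture or day. The numbers were not taken to pair the libraries, since the correlations of their deviations were -0.0489, 0.0456 and 0.108, and 3 of 6 libraries matched best with their own number.

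Depth limited the NSun3 side, where 3 reads stand for 21.6 to 63.4 RPM, and the bisulfite side where 88 of the 178 sites had fewer than 50 reads. The bisulfite levels had no replicates.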
